A study of Rattus norvegicus with 12 samples.

Results

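Expression of 4 complement genes was followed in the rat retina from postnatal day 21 (p21) to p60: the 3 chains of C1q (*C1qa*, *C1qb* and *C1qc*) and *C3*. These 4 genes, of 32883 in the deposited files, were taken by their Ensembl identifiers and chromosomes. They were chosen with earlier results of these data known. The 12 libraries, 3 for each age and line, were made from whole retinas of Royal College of Surgeons (RCS) rats. The immunocompetent line is labelled WT, male, with the genotype RCS-p+, and the athymic line is labelled female, with the genotype RCS-p+/Foxn1mu, and both were collected on Day 21 and on Day 60. All RCS rats, WT included, lack a working MerTK, the receptor with which the retinal pigment epithelium takes up shed outer segments, so all groups carry this defect. *Foxn1* is needed for the thymus, so T cells are scarce in the athymic line, whereas its microglia remain. Nothing states whether each library was 1 animal, so the p-values measure the spread between these libraries.

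C1q is the recognition unit of the classical complement pathway. It is assembled from A, B and C chains, each encoded by its own gene, and it binds immune complexes, dying cells and synapses. C3 is the protein on which the classical, lectin and alternative pathways meet. Its cleavage leaves C3b on a target, which marks it for uptake. In the brain and retina, C1q is made mainly by microglia, and *C3* can be made by reactive glia, microglia and other cells.

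Library totals were between 13852516 and 16725355 counts. Counts on the Y chromosome went against the labelled sex in 3 of the 6 libraries labelled female. Libraries 4, 5 and 22 had 269 to 328 CPM, that is, counts scaled to a common library total, against 8.79 to 23.2 in the other 3. Library 3 had the lowest Y level of the libraries labelled male, with 229.2 CPM, where the others had 250.8 to 323. This value does not go against its label. In libraries 4, 19 and 24, 35, 121 and 67 genes were at least 4-fold above both other libraries of their condition, whereas the other 9 libraries had 0 to 14 such genes. The results below are therefore also given without these libraries where a call changed. Line and labelled sex cannot be told apart in these labels. Markers of the retina, of microglia and of other cell types were not analysed here, because the identifiers in the files are not paired with gene names. In whole retina, a change in the number of cells of a type and a change in RNA per cell cannot be told apart.

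In the coordinates of the files (Rnor_6.0), the C1q genes lie side by side on chromosome 5 on the minus strand. *C1qb* (ENSRNOG00000012749) spans 155246447 to 155252003, *C1qc* (ENSRNOG00000012804) spans 155255005 to 155258392 and *C1qa* (ENSRNOG00000012807) spans 155261250 to 155264143. The stretch is 17.7 kb long, with no other annotated gene in it, and the genes are 3.001 and 2.86 kb apart. RefSeq gives the same order of names in GRCr8. Each chain gene has 3 exons, which sum to 1048 bp for *C1qa*, 1083 bp for *C1qb* and 1090 bp for *C1qc*. *C3* (ENSRNOG00000046834) lies on chromosome 9 from 9721105 to 9747167 on the plus strand, with 41 exonic blocks and 5188 bp of exons. No exonic position of the 4 genes belongs to a further gene of the annotation, so their counts do not depend on how overlapping genes were counted.

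**Figure D1:**
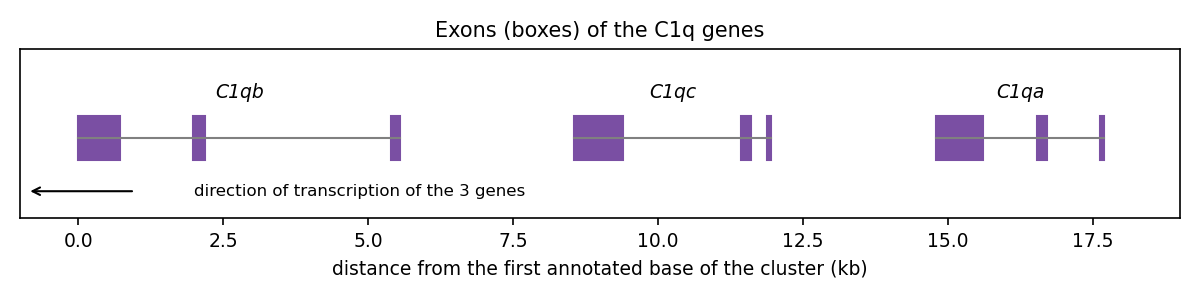
Exons (boxes) of the 3 C1q genes along the horizontal axis, in kb from the first annotated base of the cluster. The genes follow each other over 17.7 kb in the order C1qb, C1qc, C1qa, and all are transcribed to the left.

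The 250 bases before the RefSeq start of the C1q genes are shown with *C3* for comparison. Whether they bear on the rise of the chains, which differed in size, was not tested. RefSeq (GRCr8) held this stretch for *C1qa*, *C1qb* and *C3*, and not for *C1qc*. In GRCr8 *C3* lies on the minus strand, unlike in Rnor_6.0. The sequences run 5′ to 3′ on the strand of the gene. Capitals mark matches, on both strands, to letters bound by ETS factors such as PU.1 (GGAAGT), by IRF factors (GAAANNGAA), by C/EBP factors (TTGCNNAA) and by STAT factors (TTCNNNGAA). PU.1 is a factor of macrophages and microglia, and C/EBP and STAT factors act in inflammation.
C1qa, GRCr8 chr5:154419934-154420183, minus strand: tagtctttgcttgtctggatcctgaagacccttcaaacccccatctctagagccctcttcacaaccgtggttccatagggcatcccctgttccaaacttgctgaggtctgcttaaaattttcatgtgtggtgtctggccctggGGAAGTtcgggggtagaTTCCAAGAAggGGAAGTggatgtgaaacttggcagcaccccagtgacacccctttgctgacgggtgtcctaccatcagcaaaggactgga
C1qb, GRCr8 chr5:154407828-154408077, minus strand: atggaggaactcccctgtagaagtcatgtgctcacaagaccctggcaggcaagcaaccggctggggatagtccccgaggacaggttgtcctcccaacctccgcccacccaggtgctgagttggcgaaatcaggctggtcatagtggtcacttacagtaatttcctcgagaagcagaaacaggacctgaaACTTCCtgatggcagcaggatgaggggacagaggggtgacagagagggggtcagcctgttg
C3, GRCr8 chr9:2201340-2201589, minus strand: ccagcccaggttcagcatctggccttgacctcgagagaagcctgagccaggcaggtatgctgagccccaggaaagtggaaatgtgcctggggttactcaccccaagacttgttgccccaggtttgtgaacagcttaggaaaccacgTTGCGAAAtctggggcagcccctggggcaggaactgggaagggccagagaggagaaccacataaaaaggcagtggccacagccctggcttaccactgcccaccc

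The *C1qa* stretch held 2 matches to GGAAGT, starting at -107 and -79 from the RefSeq start, and 1 match to TTCNNNGAA at -90. The *C1qb* stretch held 1 match to GGAAGT at -61. The *C3* stretch held 1 match to TTGCNNAA at -104. The IRF letters were in none of the 3. Among 33469 rat promoters of the same length, 19.2% held GGAAGT, 8.12% GAAANNGAA, 9.22% TTGCNNAA and 7.67% TTCNNNGAA. The matches do not overlap, and they describe letters, not bound factors.

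*C1qa*, which encodes the A chain, rose from p21 to p60 in both lines. Levels are given as CPM after TMM scaling, which takes most genes as unchanged. Of the 16069 genes tested over all 12 libraries, 9969 were called by age. A level is relative to the other RNA of its library, so a rise here need not be a rise in amount per retina. At p21, libraries 1, 2 and 3 of the immunocompetent line had 11.7, 12.6 and 11.8 CPM, and libraries 4, 5 and 6 of the athymic line had 12.1, 10.1 and 11.8. At p60, libraries 19, 20 and 21 of the immunocompetent line had 30.9, 30.9 and 34.7, and libraries 22, 23 and 24 of the athymic line had 31.0, 23.3 and 32.3. The ages did not overlap, and the lowest p60 library, number 23, was still well above the highest p21 library. The change was 2.61-fold over all 12 libraries (log2 fold change 1.38, SE 0.0847, 95% interval 1.20 to 1.57, adjusted p = 6.75e-09 in an edgeR quasi-likelihood fit that held line constant). It was 2.67-fold in the immunocompetent line (adjusted p = 4.03e-06) and 2.54-fold in the athymic line (adjusted p = 0.000103).

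*C1qb*, which encodes the B chain, had the largest rise of the chains over all 12 libraries. At p21, it had 6.67, 6.37 and 6.88 CPM in libraries 1, 2 and 3, and 7.501, 7.47 and 7.34 in libraries 4, 5 and 6. At p60, it had 22.5, 18.3 and 21.3 CPM in libraries 19, 20 and 21, and 18.4, 19.6 and 20.7 in libraries 22, 23 and 24. The libraries of an age lay close together, and the ages did not overlap. The change was 2.86-fold (log2 fold change 1.52, SE 0.0786, 95% interval 1.35 to 1.69, adjusted p = 1.11e-09, edgeR). It was 3.12-fold in the immunocompetent line (adjusted p = 8.26e-06) and 2.62-fold in the athymic line (adjusted p = 1.26e-05).

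*C1qc*, which encodes the C chain, rose less and varied more at p60. At p21, it had 7.70, 6.24 and 6.503 CPM in libraries 1, 2 and 3, and 7.93, 7.997 and 8.11 in libraries 4, 5 and 6. At p60, it had 16.4, 9.71 and 14.2 CPM in libraries 19, 20 and 21, and 13.9, 11.7 and 19.2 in libraries 22, 23 and 24. The ages did not overlap, but library 20 lay only slightly above the highest p21 library. The change was 1.92-fold (log2 fold change 0.94, SE 0.142, 95% interval 0.63 to 1.24, adjusted p = 5.31e-05, edgeR). It was 1.97-fold in the immunocompetent line (adjusted p = 0.00306) and 1.86-fold in the athymic line (adjusted p = 0.00394). The highest p60 values were in libraries 24 and 19, both named above for genes far above the other libraries of their condition. Without libraries 4, 19 and 24, the log2 fold change was 0.75 over all libraries. It was then 0.82 in the immunocompetent line and 0.64 in the athymic line, against 0.98 and 0.89 with them, and the calls held. Without libraries 3, 4, 5 and 22, which leaves 1 library at p21 in the athymic line, the log2 fold change there was 0.92 with an adjusted p of 0.111 in a model of all 4 groups. At p60, the coefficient of variation between the 6 libraries was 23.8% for *C1qc*, against 12.6% for *C1qa* and 8.22% for *C1qb*. Over all 12 libraries, the biological coefficient of variation that edgeR estimated for *C1qc* was 0.179, higher than that of 73.1% of the genes tested, whose median was 0.109.

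*C3* followed another pattern, with 2 immunocompetent libraries already high at p21. Libraries 2 and 3 had 85.2 and 76.7 CPM, whereas library 1 of the same condition had 22.4, and libraries 4, 5 and 6 of the athymic line had 21.1, 27.9 and 23.1. At p60, libraries 19, 20 and 21 of the immunocompetent line had 69.5, 71.1 and 95.01 CPM, and libraries 22, 23 and 24 of the athymic line had 117.8, 97.4 and 77.1. In the athymic line the ages did not overlap. In the immunocompetent line they did, since libraries 2 and 3 at p21 lay within the range of the p60 libraries. The raw counts of *C3* in libraries 1, 2 and 3 were 282, 1257 and 1015. In the immunocompetent line, the biological coefficient of variation that edgeR estimated for *C3* was 0.329, higher than that of 95.9% of the genes tested, whose median was 0.118.

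**Figure D2:**
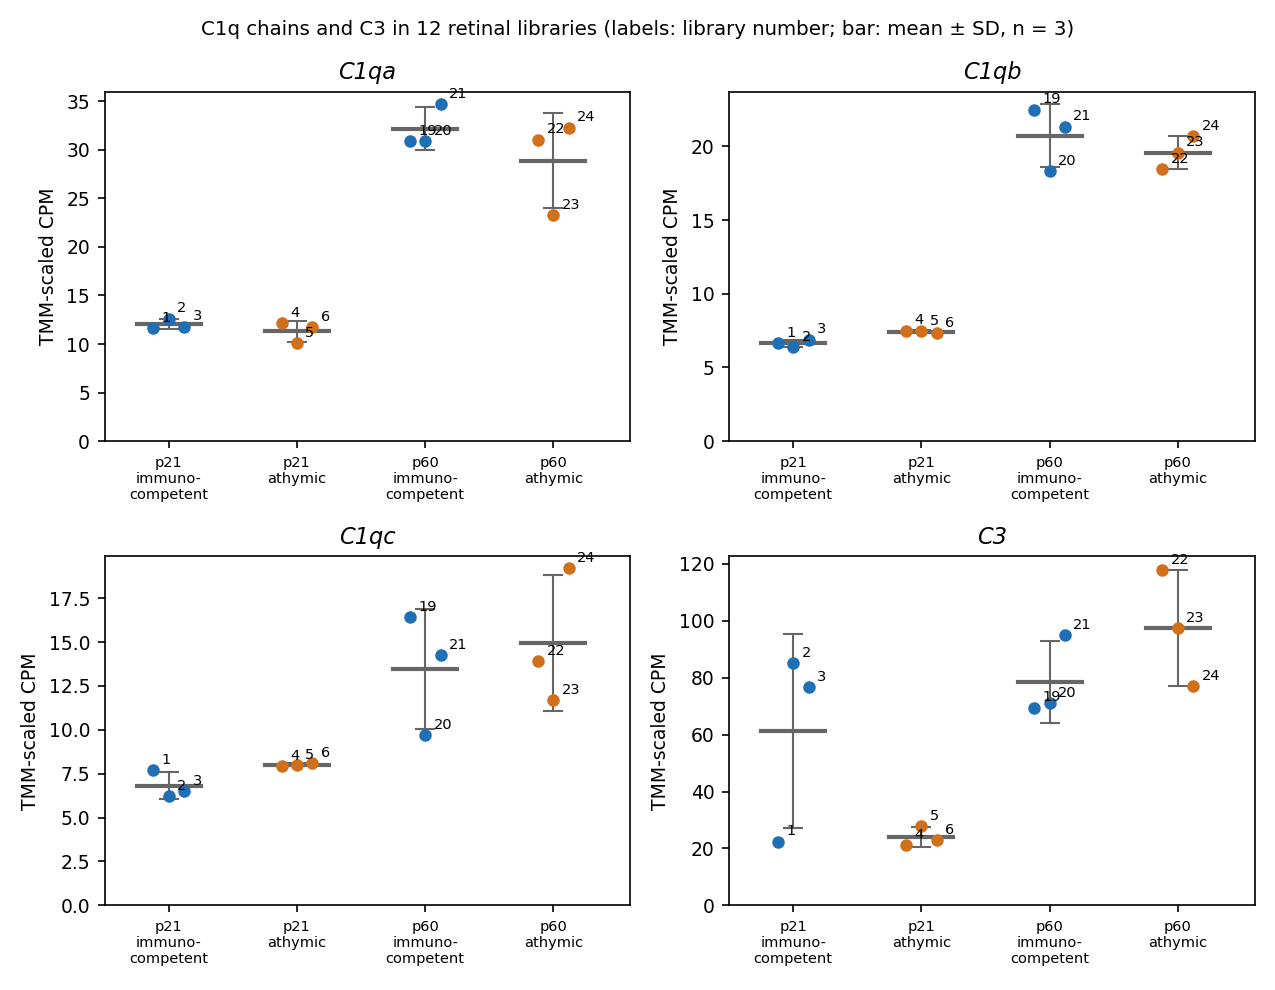
TMM-scaled CPM of each gene (vertical axes, from 0) in the 4 conditions, with 1 point per library, labelled with its number (blue, immunocompetent, orange, athymic), and mean ± SD (n = 3). All p60 points of the C1q chains lie above their p21 points, whereas C3 in libraries 2 and 3 at p21 lies at 76.7 to 85.2 CPM, within the p60 range.

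Over all 12 libraries, *C3* was 2.25-fold higher at p60 (log2 fold change 1.17, SE 0.342, 95% interval 0.43 to 1.90, adjusted p = 0.00867, edgeR). In the athymic line it rose 4.04-fold (log2 fold change 2.01, SE 0.161, 95% interval 1.65 to 2.38, adjusted p = 2.06e-05). In the immunocompetent line the log2 fold change was 0.35 (SE 0.378, 95% interval -0.50 to 1.20, adjusted p = 0.468). Library 1 decided the sign there, since without it the value was -0.04 (adjusted p = 0.825), whereas it was 0.66 without library 2 (adjusted p = 0.241) and 0.53 without library 3 (adjusted p = 0.359). Without libraries 3, 4, 5 and 22, the *C3* change over all libraries was 0.98 with an adjusted p of 0.0683, and in the athymic line, where this leaves 1 library at p21, it was 1.91 with an adjusted p of 0.0578 in a model of all 4 groups.

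Counted together, 4 of the 4 genes were called higher at p60 over all 12 libraries, where 31.7% of the 16069 genes tested were called in that direction. In the immunocompetent line 3 of the 4 were called higher, against 25.6% of all genes tested, and in the athymic line 4 of the 4, against 25.3%. The p21 and p60 libraries did not overlap, with p60 higher, for 3 of the 4 genes, the C1q chains, against 19.8% of all genes. Within the immunocompetent line this held for 3 of the 4 genes, against 29.6% of all genes, and within the athymic line for 4 of the 4, against 30.1%. Over all 12 libraries, the rise of *C1qb* exceeded that of 98.2% of the genes tested, *C1qa* that of 97.7%, *C3* that of 96.3% and *C1qc* that of 93.6%. The *C3* change exceeded that of 70.7% of genes in the immunocompetent line and of 98.8% in the athymic line. Over all 12 libraries, the gene in the middle of the list had a log2 fold change of 0.015. With scaling to total counts alone this middle value was 0.20, and of the genes called, 71.7% were higher at p60 instead of 51.1%; the C1q chains and *C3* stayed higher under both scalings.

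As single values, the mean log2 CPM of *C1qa*, *C1qb* and *C1qc* differed between the ages by 1.37, 1.498 and 0.90 (two-sided exact permutation test over 6 libraries against 6, p = 0.00216 for each, the smallest this design allows). For *C3* the difference was 1.28 (exact permutation test, p = 0.0195), where 3 of the 6 p60 libraries were above every p21 library.

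**Figure D3:**
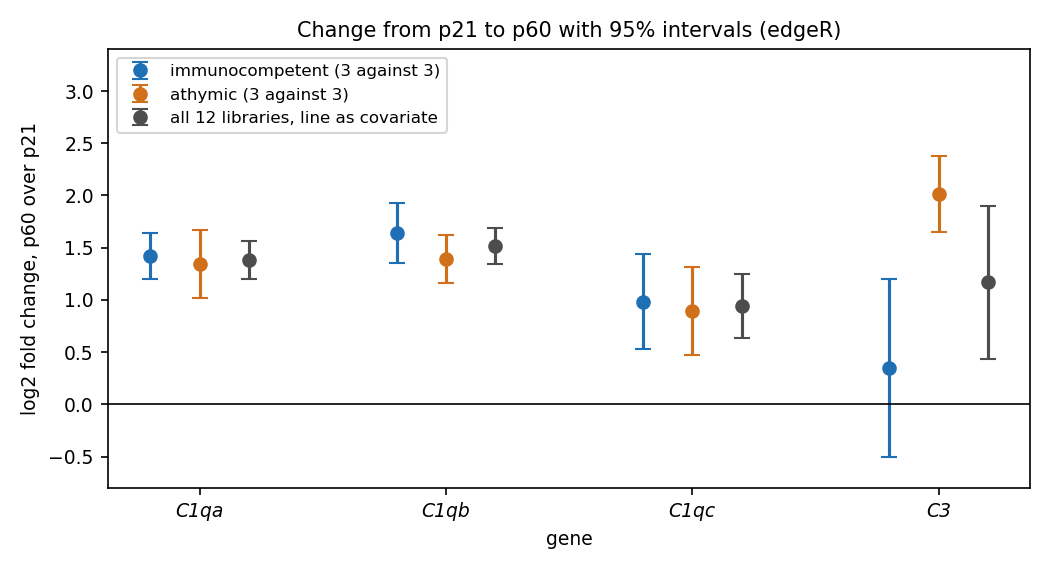
Log2 fold change from p21 to p60 (vertical axis) with 95% intervals from edgeR, for each gene (horizontal axis), in the immunocompetent line (blue), the athymic line (orange) and all 12 libraries (grey). The intervals of the 3 C1q chains lie above 0 in every fit, and that of C3 in the immunocompetent line spans 0, from -0.50 to 1.20.

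The changes of the lines were then compared directly by the interaction of age and line. For the C1q chains, the change in the athymic line minus that in the immunocompetent line was -0.07 on the log2 scale for *C1qa* (95% interval -0.45 to 0.30), -0.25 for *C1qb* (-0.57 to 0.07) and -0.09 for *C1qc* (-0.71 to 0.54). None of the 3 passed the threshold (adjusted p of 0.936, 0.652 and 0.953, edgeR), and the intervals do not show that the lines rise alike. For *C3* the difference was 1.67 (SE 0.492, 95% interval 0.61 to 2.73), with an unadjusted p of 0.00481 and an adjusted p of 0.262 over all genes. Of all genes tested, 0.00622% were called for the interaction in this fit. Library 1 decided the *C3* call, as without it the difference was 2.04 with an adjusted p of 0.00494. The fit without library 1 called 138 genes, against 1 with it. DESeq2 called 140 genes over all 12 libraries, and *C3* was not among them (adjusted p = 0.262).

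At p21, the log2 level of *C3* in the athymic line minus that in the immunocompetent line was -1.36 (SE 0.383, 95% interval -2.21 to -0.50), which did not pass the threshold over all genes (unadjusted p = 0.00563, adjusted p = 0.279, edgeR). Library 1 again decided the call, with -1.75 and an adjusted p of 0.00169 without it, in a fit that called 85 genes. The *C3* call was also made where genes with low counts were not removed (adjusted p = 0.0127), where 282 genes were called. It was not made with total counts alone (adjusted p = 0.29) or in a model of all 4 groups (adjusted p = 0.179). At that age 0 of 15225 genes, or 0%, were called by the main edgeR fit, while 1936 had an unadjusted p-value under 0.05. DESeq2 called 140 genes, and *C3* was not among them (adjusted p = 0.309). The C1q chains had log2 differences between the lines of -0.08, 0.17 and 0.24 at p21 (adjusted p of 0.831, 0.650 and 0.528 for the A, B and C chains). At p60, these were -0.15, -0.08 and 0.15 (adjusted p of 0.775, 0.866 and 0.896), and *C3* was at 0.31 (95% interval -0.07 to 0.69, adjusted p = 0.614), where 0.0193% of all genes were called.

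Since exon lengths differ, levels of different genes were compared as CPM per kb of exon. At p21, *C1qa* was highest with 11.1 ± 0.812 CPM per kb, followed by *C3* with 8.24 ± 5.75, *C1qc* with 6.80 ± 0.756 and *C1qb* with 6.4999 ± 0.435 (SD, n = 6 libraries each). The spread of *C3* reached all 3 chains, and *C1qc* and *C1qb* differed by less than their spread. At p60, the order was *C1qa* with 29.1 ± 3.66, *C1qb* with 18.6 ± 1.53, *C3* with 17.0 ± 3.63 and *C1qc* with 13.0 ± 3.09 CPM per kb. The mean of *C3* lay below that of *C1qb* by less than the SD of *C3*, and the mean of *C1qc* lay below that of *C3* by more than the SD of either gene. Among all genes with at least 1 count in a library, *C1qa* was above 57.7% to 63.1% of genes per kb at p21 and above 77.55% to 85.5% at p60. *C3* was above 44.0% to 69.7% at p21 and 65.8% to 78.4% at p60.

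The proportions of the chains were compared as ratios of counts per kb within a library, which do not depend on scaling between libraries. The B to C ratio lay between 0.872 and 1.06 at p21 and between 1.08 and 1.901 at p60 (6 libraries each), so the ages did not overlap. Its geometric mean rose from 0.959 to 1.46, a log2 difference of 0.60 (two-sided exact permutation test over 6 libraries against 6, p = 0.00216, adjusted over 4 ratios p = 0.00866). Library 24 at p60 lay nearest to the p21 libraries. The rise was 0.68 in the immunocompetent line and 0.53 in the athymic line (exact permutation test, p = 0.1 in each, the smallest that 3 against 3 allows). The A to C ratio rose from 1.64 to 2.27 (log2 difference 0.47, exact permutation test, p = 0.0152, adjusted p = 0.0303), with overlap between the ages. The A to B ratio was 1.71 at p21 and 1.56 at p60 (log2 difference -0.14, exact permutation test, p = 0.232, adjusted p = 0.309).

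The ratio of *C3* to the sum of the chains was 0.28 at both ages to 2 decimals (geometric means 0.27984 and 0.27547, exact permutation test, p = 0.95, adjusted p = 0.95). The lines had differences of opposite sign, which were not tested against each other. In the immunocompetent line, libraries 1, 2 and 3 had 0.177, 0.695 and 0.628 at p21, and libraries 19, 20 and 21 had 0.205, 0.248 and 0.278 at p60. In the athymic line, libraries 4, 5 and 6 had 0.158, 0.225 and 0.175, and libraries 22, 23 and 24 had 0.382, 0.368 and 0.220. The log2 difference between the ages was -0.82 in the immunocompetent line (exact permutation test, p = 0.4) and 0.77 in the athymic line (p = 0.2 by the same exact test). With 3 libraries against 3 this test cannot go below 0.1.

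**Figure D4:**
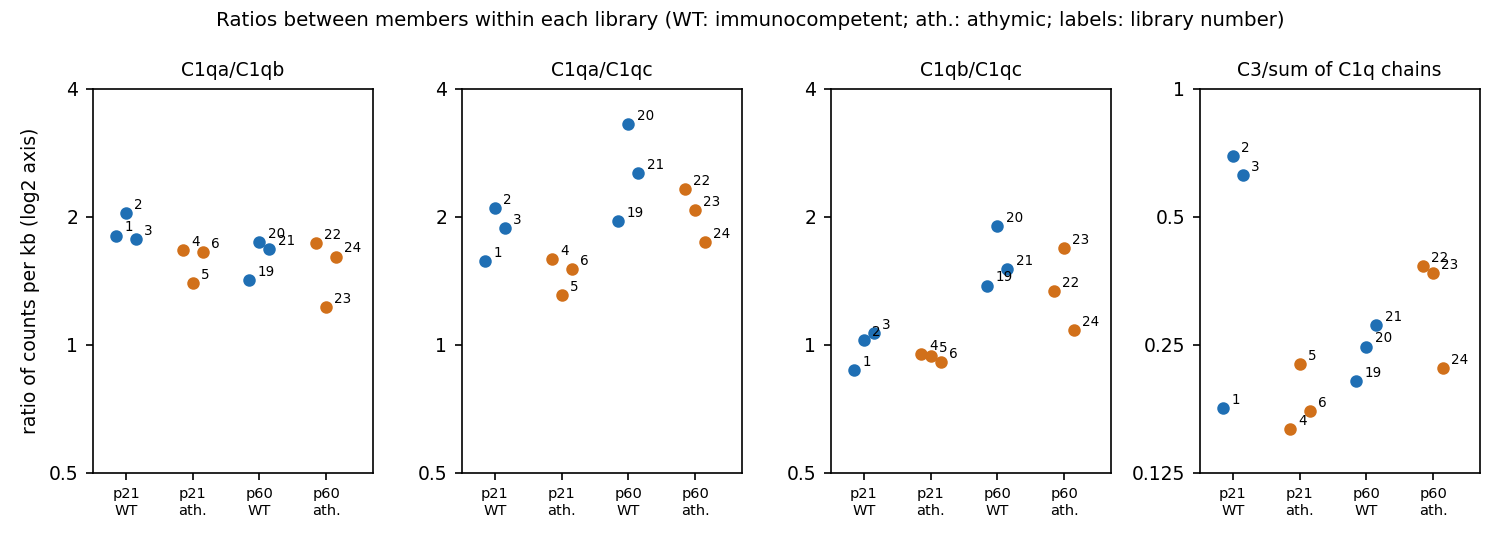
Ratios of counts per kb between members within each library (vertical axes, log2 scale), by condition (horizontal axes), with 1 point per library (blue, immunocompetent, orange, athymic) and its number. The B to C ratio is 0.872 to 1.06 at p21 and 1.08 to 1.901 at p60, and libraries 2 and 3 have the highest ratios of C3 to C1q.

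Within an age, the members were compared across the 6 libraries in 12 relations, and none passed an adjusted threshold (Pearson's adjusted p at least 0.46 and Spearman's at least 0.713, exact permutation tests). At p21, *C3* fell into 2 high libraries (2 and 3) and 4 low ones, so no coefficient is given for it there. *C1qb* and *C1qc* had an r of 0.79 at p21 (rho 0.71, exact permutation p = 0.139 and 0.136) and of 0.68 at p60 (rho 0.77, exact permutation p = 0.136 and 0.103), which became 0.95 and 0.41 without the 2 libraries farthest from the median of *C1qb*. These coefficients do not hold line constant, and at p21 every athymic library was above every immunocompetent one for both genes. The coefficient of variation of *C1qb* at p21 was 6.69%, where counting alone gives about 10.1%.

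The profile of each gene over the 12 libraries was set beside those of all other genes by the root mean square distance on the log2 scale, after subtraction of the mean of each gene. The chains were 0.18 (*C1qa* and *C1qb*), 0.35 (*C1qa* and *C1qc*) and 0.36 (*C1qb* and *C1qc*) apart, and *C3* was 0.63 to 0.79 from them. Of 13543 other genes whose log2 CPM averaged 1 or more, 672 (4.96%) lay within 0.3 of the mean profile of the chains, and 10 (0.0738%) lay within 0.3 of *C3*. The chains enter here as a mean of 3 profiles and *C3* as a single profile, so these counts are unlike measures. The gene nearest to the chains was ENSRNOG00000008620, on chromosome 8 from 68569530 to 68678349, at a distance of 0.11 from their mean profile. That distance cannot be set against those between single chains. It had 33.96 to 44.3 CPM at p21 and 75.6 to 96.3 at p60 (log2 fold change 1.14, SE 0.0702).

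The gene nearest to *C3* was ENSRNOG00000014294, on chromosome 4 from 157239142 to 157263890, at a distance of 0.19. It had 4.60, 14.6 and 12.9 CPM in libraries 1, 2 and 3, and 3.0005, 3.66 and 3.58 in libraries 4, 5 and 6. At p60 it had 11.9 to 18.7 CPM. It was picked for its likeness to *C3* over these same libraries, so its high values in libraries 2 and 3 follow from the choice.

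**Figure D5:**
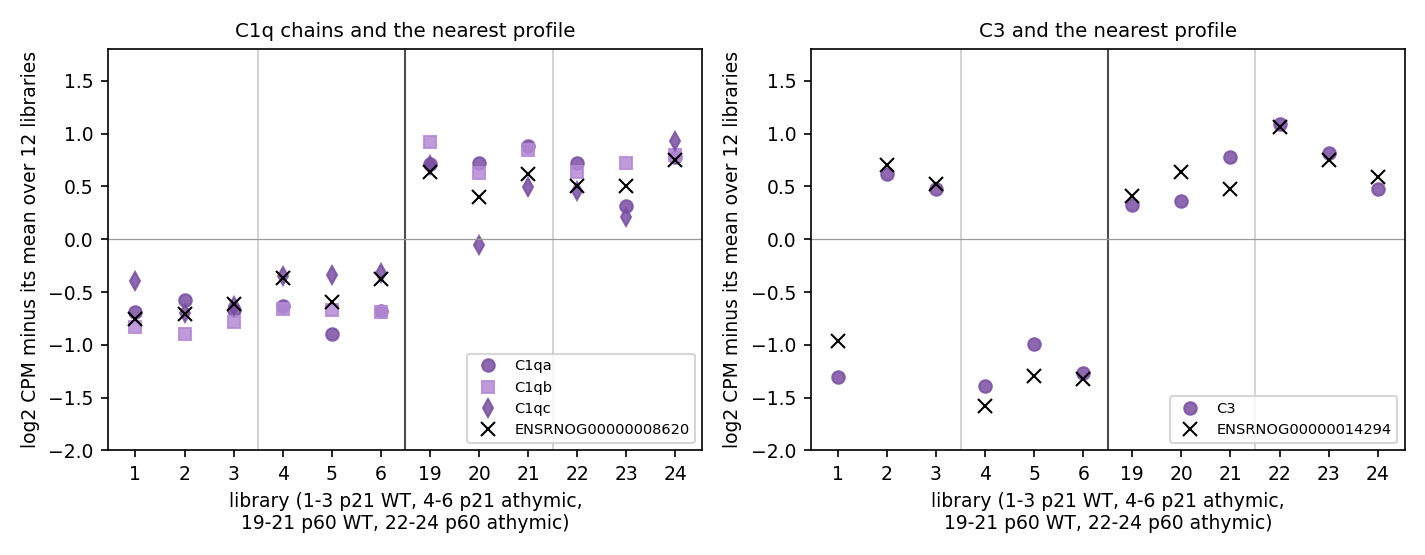
Log2 CPM minus its mean over the 12 libraries (vertical axes) by library (horizontal axes) for the C1q chains (left) and C3 (right), with the gene of the nearest profile as crosses. The crosses lie at a distance of 0.11 from the mean of the chains and 0.19 from C3, the smallest of 13543 genes, by which they were picked.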

How the data were processed

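Whole retinas of 12 RCS rat libraries were sequenced as poly(A) RNA in paired-end reads. The authors deposited raw counts per Ensembl gene. Per the labels, reads were aligned with STAR 2.5.2b to Rnor_6.0 and counted with featureCounts (Subread 1.5.2, whereas the methods name another version). The strand setting and the treatment of reads with several positions are not given in the sources used here. These steps could lower or split the counts of near-identical genes.

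From the deposited counts, genes were kept with filterByExpr (minimum count 10, minimum total 15), scaled with TMM and tested with edgeR 4.0.16 (R 4.3.3), with Benjamini-Hochberg adjustment over all genes tested at 0.05. Standard errors came from the fold change and its F statistic. The main fit of each comparison was also run on simulated counts, drawn with its own estimated dispersions and with no outlying library added. Only a small set of genes was changed in them, in equal numbers up and down. In the data, 9969 of 16069 genes were called by age, so the simulation cannot test whether TMM scaling holds there. The alternative fits were not simulated. DESeq2 1.42.0 was an alternative. Single values were compared with exact permutation tests (scipy 1.17.1), and plots were drawn with matplotlib 3.10.9. The alternatives were other scalings and filters, DESeq2, a model of all 4 groups, no line term and leaving out libraries.

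The members, lists and tests were chosen with earlier results of these data known. The genes named are the 4 members and the nearest profile to the chains and to *C3*. Lists of other complement genes and of cell type markers had been written by symbol. Of 32883 identifiers, 0 were in the RefSeq table, so these lists were not analysed here. Library totals of 13852516 to 16725355 counts gave 84 to 1993 counts for a member.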

Additional observations from a re-analysis of the deposited data

Results flagged for a closer look

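In 8 groups of 6 libraries of one age, the lowest *C1qa* value was flagged as an outlier by Dixon's ratio in 2 groups, where about 1 in 20 groups is reached by chance. At p21 this was library 5, with 10.1 CPM against 11.7 to 12.6 in the other libraries. At p60 it was library 23, with 23.3 CPM against 30.9 to 34.7 in the others. Between the 6 libraries, the coefficient of variation of *C1qa* was 7.29% at p21 and 12.6% at p60. Counting alone gives about 7.87% and 4.55%, so the spread at p21 was no larger than that of counting. In both libraries *C1qb* was within the range of the others (7.47 CPM in library 5 and 19.6 in library 23), so the A to B ratio was lowest there, at 1.395 and 1.23. Both libraries are of the athymic line. Without library 23, the change of *C1qa* over all libraries was 1.45 on the log2 scale, instead of 1.38.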

How the results depend on the processing

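No paired analysis was possible because the labels give each library its own number and the groups share none. The C1q chains were higher at p60 in every alternative run, with log2 fold changes over all libraries of 1.35 to 1.57 (*C1qa*), 1.48 to 1.71 (*C1qb*) and 0.75 to 1.13 (*C1qc*). Their calls held except for *C1qc* in the athymic line without libraries 3, 4, 5 and 22 (0.92, adjusted p = 0.111), where 1 library was left at p21, its spread was assumed to be that of the other groups, and a model of all 4 groups was used. In that model *C3* in the athymic line was 1.91 (adjusted p = 0.0578), and without the same libraries it was 0.98 over all libraries (adjusted p = 0.0683). The *C3* line difference at p21 was called without a filter on low counts (-1.35, adjusted p = 0.0127), and not by DESeq2 (adjusted p = 0.309). Without libraries 4, 19 and 24, no call of a member changed.

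When 1 library at a time was left out, *C3* ranged from -0.0402 to 0.66 in the immunocompetent line, from 1.34 to 2.04 for the interaction (adjusted p of 0.00494 to 0.564) and from -1.75 to -1.05 between the lines at p21 (adjusted p of 0.00169 to 0.633). Uncalled values near 0 changed sign: the interaction of *C1qa* (-0.16 to 0.0618) and *C1qc* (-0.31 to 0.0797), the line difference of *C1qa* at p21 (-0.13 to 0.0011) and of *C1qc* at p60 (-0.0814 to 0.32), and the ratio of *C3* to the chains (-0.19 to 0.24). The B to C and A to C ratios rose in each case (0.53 to 0.69 and 0.36 to 0.54).

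Counts of all genes called were less stable. For the interaction, 1 gene was called in the main analysis, 115 without a filter, 140 by DESeq2, 0 with at least 10 counts in every library, 3 without libraries 4, 19 and 24, 0 without libraries 3, 4, 5 and 22, and 1 to 138 when 1 library was left out (138 without library 1 and 92 without library 24). For the lines at p21, where the main count was 0, these were 282 without a filter, 140 by DESeq2, 12 without libraries 3, 4, 5 and 22 in a model of all 4 groups (0 in that model with them), and 0 to 85 (85 without library 1). For the lines at p60, where it was 3, these were 11 without a filter, 111 by DESeq2, 179 without libraries 4, 19 and 24, 26 without libraries 3, 4, 5 and 22, and 0 to 61 (61 without library 24). For age in the athymic line, the model of all 4 groups called 4279 genes without libraries 3, 4, 5 and 22 and 7937 with them, and the main analysis 7740. The cause was not tested.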
